A study of Mus musculus with 13 samples.

Results

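The response of RaptorKO sciatic nerves to crush injury was described at 5 days postcrush (dpc) by setting 3 injured RaptorKO nerves against 4 uninjured contralateral RaptorKO nerves. All genes with 50 or more counts in at least 2 of these 7 libraries were taken, which gave 12515 of the 40787 genes of the table. RaptorKO mice carried floxed Rptor alleles that were recombined in Schwann cells (SCs) by a tamoxifen-inducible CreERT2 transgene that is active in these cells. Control mice carried the floxed alleles without Cre. Both genotypes, labelled as C57BL/6, received tamoxifen at 2 months of age, and 1 sciatic nerve was crushed 2 months later. The 6 control libraries (3 injured and 3 contralateral nerves) are used here only to show where the RaptorKO response differed. RNA was taken from nerves after removal of the epineurium, and for injured nerves from the whole part distal to the crush. The libraries therefore hold RNA of SCs, macrophages, fibroblasts, vessels, and other cells, of which only the recombined SCs lost Rptor. In such samples fewer cells of a type and less RNA per cell cannot be told apart.

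Raptor is the scaffold subunit of mTORC1, the kinase complex that links growth factors and nutrients to protein synthesis, ribosome production, and lipid synthesis. After a nerve crush the axons distal to the lesion degenerate. SCs then shut down the myelin program, switch on the transcription factor c-Jun and a set of repair genes, divide, and clear myelin debris together with macrophages that enter the nerve. These processes give the gene groups by which the response is ordered below, from myelin and lipids through repair, proliferation, and protein synthesis to the other cells of the nerve.

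Rptor, the targeted gene (ENSMUSG00000025583), had 26.1, 23.2 and 28.6 CPM in RaptorKO injured nerves and 24.4, 22.1, 28 and 23.3 CPM in RaptorKO contralateral nerves. CPM are counts per 1000000 counts of the library, with the library total scaled by its TMM factor. The ranges overlapped, and the exact permutation test gave a two-sided p of 0.457, where 0.0286 is the smallest p that 3 against 4 libraries allow. Both RaptorKO groups lay below the control libraries, which held 35 to 48.6 CPM when injured and 43.7 to 52.5 CPM when uninjured. Counts are per gene and do not resolve the floxed exon. The defining SC genes were present in every RaptorKO library, with 275 to 416 CPM of Sox10 and 152 to 241 CPM of S100b in injured nerves and 479.9 to 587 and 368 to 458 CPM in contralateral nerves. Totals ranged from 8200458 to 13581775 counts in the 7 RaptorKO libraries. Across genes, which are not independent replicates, log2 CPM had a Pearson's r of 0.963 to 0.978 within the injured group, 0.954 to 0.976 within the contralateral group, and 0.728 to 0.751 between them. Markers of other cells set some libraries apart. RaptorKO injured 2 had the lowest summed CPM of macrophage genes (6883 against 10365 and 10489) and the highest of endothelial genes (2159 against 1623 and 1602). RaptorKO contralateral 3 had 1246 CPM of adipocyte genes, where the other 3 had 185.6 to 256 CPM.

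The injury changed a majority of the genes tested. In RaptorKO nerves 3811 genes (30.5%) were higher and 3561 (28.5%) lower after injury, as called by edgeR's quasi-likelihood test. A gene was called where its fold change passed 1.2 and its p, adjusted by Benjamini-Hochberg, was below 0.05, and SE stands for the standard error of a log2 fold change. Of these, 1764 rose and 1666 fell more than 2-fold, and 206 rose and 135 fell more than 16-fold. All injured libraries lay above all contralateral libraries for 3971 genes (31.7%) and below them for 3610 genes (28.8%). The split depended on scaling. With library totals in place of TMM factors the median log2 fold change of all genes moved from 0.03 to 0.19, and 4708 genes were higher and 2835 lower, so that 62.4% rather than 51.7% of the called genes were higher. Without RaptorKO injured 1, which lowered the counts most, 3169 genes were higher and 3064 lower. For comparison, control nerves had 4032 of 12430 genes higher (32.4%) and 4087 lower (32.9%).

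The largest changes were ranked among called protein-coding genes without overlap between groups and with a minimum count in every library of the higher group. Among the 12 such genes that rose most, several were all but absent from uninjured RaptorKO nerves. Slc17a8, which encodes the vesicular glutamate transporter VGLUT3, had 86.4, 91.9 and 97.1 CPM in injured nerves and 0.747, 0, 0.191 and 0.258 CPM in contralateral nerves. Its log2 fold change was 8.33 (SE 0.36, adjusted p = 2.98e-08). Wif1, a secreted Wnt inhibitor, went from 0.107, 0.382, 0.286 and 0.129 CPM to 52, 27 and 55.5 CPM (7.45), with RaptorKO injured 2 the lowest of the injured libraries. The vitamin D receptor gene Vdr had no count in the 4 contralateral libraries and 10.8, 6.6 and 15 CPM in the injured ones. This is at least 35.4-fold higher when 3 counts per library are taken as the floor. Asgr1, a subunit of the asialoglycoprotein receptor, and Lingo3 were likewise at 0 in contralateral nerves and were at least 34.9-fold and 23.1-fold higher. Fgf5, a fibroblast growth factor, had a single count among the 4 contralateral libraries and 18.4, 17.8 and 14 CPM after injury. Il1rn, the interleukin-1 receptor antagonist, had 2 counts at most in a contralateral library and 7.2, 8.25 and 15.1 CPM in injured nerves. Rgs8, B430306N03Rik, Xkr5, Stra6l, and Gdf3 completed the 12, each with 2 counts or fewer in every contralateral library.

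Ranked under the same conditions of separation and minimum count, the 12 genes that fell most included several that were abundant in the uninjured nerve. Genes that did not meet these conditions were not ranked, whatever the size of their fall. Ddn, which encodes dendrin, had 266, 326, 247 and 269 CPM in contralateral and 1.16, 0.629 and 0.549 CPM in injured RaptorKO nerves, a log2 fold change of -8.47 (SE 0.22, adjusted p = 3.29e-09). Col24a1, a fibrillar collagen gene, fell from 132, 156, 107 and 211 CPM to 1.24, 1.65 and 1.74 CPM (-6.61). Fgf4, a fibroblast growth factor gene, fell from 25.7, 32.6, 23.2 and 38.5 CPM to 0.444, 0.236 and 0.0915 CPM (-6.80). Separation of the injured from the contralateral libraries was a condition for all 12 and so is not a result. Extl1, an exostosin-like glycosyltransferase gene, fell by 6.83 on the log2 scale. Plk5, a polo-like kinase gene without mitotic function, had 21.4 to 52.1 CPM in contralateral nerves and 1 count at most in an injured library. Ppl (periplakin), Pdzph1, Etnppl, Cndp1, Mchr1, Mybph, and Ccer2 completed the 12. They had between 5.88 to 15.5 CPM (Mybph) and 27.4 to 33.9 CPM (Ppl) in contralateral nerves, and none had more than 3 counts in an injured library.

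Genes of structural myelin fell together in RaptorKO nerves. Of 25 tested members of the list, 21 were lower, 1 was higher, and 3 did not pass the test, with a median log2 fold change of -3.43 against 0.03 for all genes. Mbp, myelin basic protein, had 21390, 23830, 21060 and 25010 CPM in contralateral nerves and 727, 672 and 557 CPM in injured nerves. Its log2 fold change was -5.13 (SE 0.14, adjusted p = 3.29e-09). Pmp22, the tetraspan protein of compact myelin, fell by 5.57, Prx, the periaxin gene, by 5.59, and Mag, a periaxonal glycoprotein, by 4.41 on the log2 scale. The summed CPM of the list were 93654, 108244, 87724 and 105077 in contralateral and 5444, 5547 and 4682 in injured nerves. Among the 3 that did not pass were Tspan2 (-0.12), a tetraspanin gene, and Gldn (-0.32), the gliomedin gene of SC microvilli at the node. In controls 24 of 25 members were lower, with a median of -3.42.

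Gjb1 went against its group. It encodes connexin 32, the gap junction protein of noncompact myelin, and lies on chromosome X, 101376378 to 101385629 (GRCm38). It had 189, 212 and 179.9 CPM in injured and 113, 129, 114 and 128 CPM in contralateral RaptorKO nerves, a rise of 0.67 (SE 0.10, adjusted p = 0.000144) on the log2 scale. All 3 injured libraries lay above all 4 contralateral libraries. In control nerves Gjb1 fell from 146 ± 13.3 to 94.6 ± 7.39 CPM (SD, n = 3 each). The difference between the responses, tested in 1 model of all 13 libraries, was 1.30 (SE 0.14, adjusted p = 0.000175). Bcas1, a marker of myelinating cells, fell in both genotypes but less in RaptorKO nerves. It had 206, 200.5 and 178 CPM in injured RaptorKO nerves and 51.7 to 59.1 CPM in injured controls, while the contralateral nerves held 656 to 799.6 and 689 to 731 CPM. Its difference was 1.77 (SE 0.13, adjusted p = 1.02e-05). The differences of both genes stayed called whichever library was left out. Over all genes tested for the difference 1.07% were called above 0. In the list as a whole the difference had a median of 0.04, and 4 of 25 members were called, all above 0. The other two were Drp2 (0.85), a dystrophin-related protein gene of the Cajal band appositions, and Nfasc (0.84), the neurofascin gene of the node and paranode. The 4 calls became 2 without any one of RaptorKO contralateral 1, RaptorKO injured 1 or 2, control contralateral 1 or 2, and control injured 2 or 3.

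**Figure D1:**
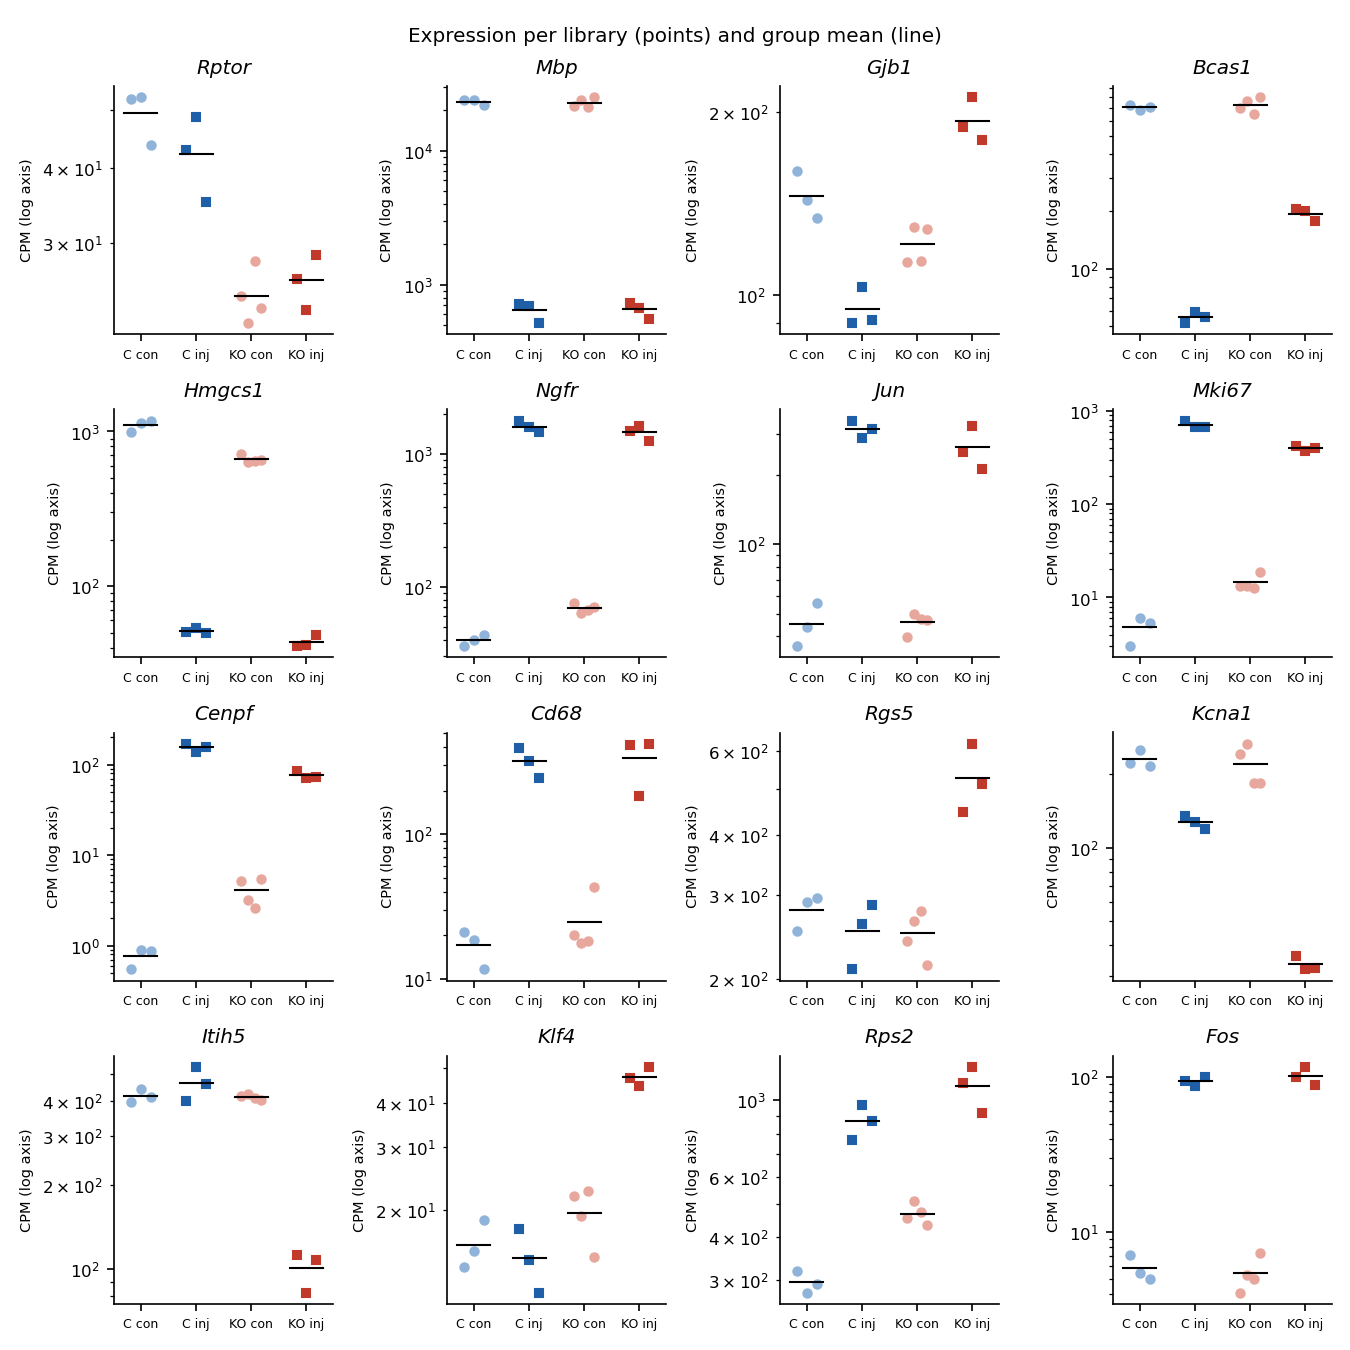
CPM of 16 genes (log axes) in each of the 13 libraries, with a line at the group mean. C con and C inj are control contralateral and control injured nerves, KO con and KO inj the RaptorKO ones. Mbp and Hmgcs1 fell and Ngfr, Jun, and Fos rose in both genotypes, whereas Gjb1 rose in RaptorKO and fell in control nerves. Itih5 is low in RaptorKO injured nerves, and among these Cd68 is lowest in library 2.

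Lipid synthesis genes fell with the myelin genes. Of 25 tested genes of sterol synthesis and uptake 24 were lower in injured RaptorKO nerves and 1 did not pass, with a median of -2.53. Hmgcs1, which makes HMG-CoA at the start of the sterol pathway, fell from 716, 633, 639.7 and 657 CPM to 40.9, 41.3 and 48.3 CPM, a log2 fold change of -3.93 (SE 0.11, adjusted p = 3.57e-09). Idi1, which isomerizes isopentenyl diphosphate, fell from 187, 171, 169 and 154 CPM to 11.3, 11.5 and 9.05 CPM, a log2 fold change of -4.01 (SE 0.13, adjusted p = 5.23e-09). The list summed to 3524 to 3814 CPM in contralateral and 528 to 553 CPM in injured RaptorKO nerves, against 4730 to 5303 and 578 to 639 CPM in controls. The difference between responses had a median of 0.17. By edgeR's quasi-likelihood test 0 of the 25 members were called, 6 had an unadjusted p below 0.05, and DESeq2 called 1. Of 30 tested genes of fatty acid and sphingolipid synthesis 22 were lower, 1 was higher, and 7 did not pass. Ugt8a, which makes galactosylceramide, fell from 962, 1001, 841 and 988 CPM to 39.8, 29.5 and 33.7 CPM. Its fall of -4.79 exceeded that of controls (-3.83) by -0.98 (SE 0.17, adjusted p = 0.00718). Elovl6 (-3.86) and Elovl7 (-2.84), which elongate fatty acids, and the ceramide synthase gene Cers4 (-2.38) fell as well.

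The promoter of Hmgcs1 holds 1 sterol regulatory element and is shown because this gene carries the sterol result. The 250 bases before its start, from RefSeq on the plus strand of GRCm38.p6 (chr13:119690101-119690350), are given below 5′ to 3′ with the element TCACNCCAC and the CCAAT boxes of either strand in capitals.
Hmgcs1: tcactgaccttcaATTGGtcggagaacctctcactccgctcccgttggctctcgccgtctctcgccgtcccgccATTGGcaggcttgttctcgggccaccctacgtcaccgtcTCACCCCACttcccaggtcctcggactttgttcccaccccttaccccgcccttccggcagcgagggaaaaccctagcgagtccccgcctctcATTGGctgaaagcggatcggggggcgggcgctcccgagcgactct
In the RefSeq promoter table, which spans 250 bases before to 50 bases after each start, TCACNCCAC on either strand was found in 1 of 18 matched genes of the sterol list (5.6%) and in 1.4% of 27025 genes. CCAAT was found in 16 of the 18 (88.9%) and in 41.1% of all genes. A gene counts where any of its promoters holds the letters. By promoter CCAAT was found in 72.7% of the 22 of the sterol list and in 37.4% of all 32851. Of the 26 genes of the structural myelin list 19 had an entry. GTGGGNG, a core of the binding site of EGR proteins, was present in 12 of these (63.2%) and in 34.3% of all genes. By promoter the contrast was smaller, with 44.1% of the 34 promoters of these genes and 31.6% of all promoters. Such matches describe letters in the window and not bound sites.

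Of 18 tested transcription factor genes of SC differentiation 5 were higher, 7 were lower, and 6 did not pass, where 30.5% of all genes were higher and 28.5% lower. The list had a median of -0.10. Egr2, the master factor of myelination, fell from 341, 364, 264 and 290.2 CPM to 43.3, 46.5 and 44.2 CPM, a log2 fold change of -2.82 (SE 0.13, adjusted p = 4.44e-08). Sox10, which marks SCs at all stages, fell from 539 ± 52 CPM (SD, n = 4) to 352 ± 71.1 CPM (SD, n = 3), a log2 fold change of -0.62 (SE 0.14, adjusted p = 0.00333). Pou3f1, which encodes the promyelin factor Oct6, rose from 21.3, 27.4, 22.8 and 28.7 CPM to 121, 116 and 108 CPM (2.19). Sox2, a factor of immature SCs, rose from 2.95 to 8.02 CPM to 59.3, 69.5 and 41.1 CPM (3.44), and Id2, an inhibitor of differentiation, rose by 2.35 on the log2 scale. In the difference between responses edgeR's quasi-likelihood test called 0 of the 18, 6 had an unadjusted p below 0.05, and DESeq2 called 2. With same-numbered nerves as a block Pou3f1 was called (-0.70, adjusted p = 0.0417).

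Repair genes rose. Of 35 tested genes of repair and immature SCs 24 were higher, 3 were lower, and 8 did not pass, with a median of 2.51. Jun, which encodes c-Jun, had 39.7, 49.7, 47.4 and 46.8 CPM in contralateral and 249.8, 327 and 212 CPM in injured RaptorKO nerves, a log2 fold change of 2.51 (SE 0.15, adjusted p = 2e-07). RaptorKO injured 2 was the highest and 3 the lowest of the injured libraries, and all lay above the contralateral range. Ngfr, the low-affinity neurotrophin receptor, rose from 75.2, 63.1, 67.6 and 70.2 CPM to 1494, 1624 and 1245 CPM (4.39). Gdnf, a trophic factor for motor neurons, went from 0.258 to 2.13 CPM to 46.5, 67.7 and 61.5 CPM (6.01). Shh, the sonic hedgehog ligand, went from 2.19 to 6.72 CPM to 100.0, 202 and 147 CPM (5.04), with RaptorKO injured 1 the lowest and 2 the highest of the injured libraries. Runx2 (4.83), a runt factor, the EGF family ligand Btc (6.40), and the engulfment receptor gene Megf10 (3.57) rose too. Among the 3 that fell were Ncam1 (-1.49), the neural cell adhesion molecule of nonmyelinating SCs, and Stmn1 (-0.59), a regulator of microtubules. Olig1 and Bdnf stayed under the count filter, at 0.267 to 0.366 CPM and 0.0888 to 0.274 CPM in injured nerves.

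The rise of Ngfr was smaller than in controls, in which the gene went from 35.9 to 43.6 to 1447 to 1780 CPM, and the difference was -0.93 (SE 0.16, adjusted p = 0.00856). Injured nerves of both genotypes held overlapping levels of Ngfr, while the uninjured RaptorKO nerves lay above the uninjured controls. The matrix glycoprotein gene Tnc, which repair SCs deposit at the injury, rose from 9.34 to 20.4 CPM to 170.3, 167 and 163 CPM in RaptorKO nerves and to 494 to 572 CPM in controls. Its difference was -1.44 (SE 0.26, adjusted p = 0.00862). Jun itself had a difference of -0.29 (SE 0.22, adjusted p = 0.652), which did not pass. Of 36 repair genes tested for the difference 5 were called below 0, against 1.41% of all genes. With Ngfr and Tnc the 5 were Ncam1 (-0.90), Gfap (-1.76), an intermediate filament gene, and Mcam (-0.96). Cdh2, N-cadherin, was called above 0 (0.89). The 5 were 3 without control contralateral 2 and 8 with DESeq2, and the call of Mcam was lost without control contralateral 2 (adjusted p = 0.0637) or control injured 2 (adjusted p = 0.0533).

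Immediate early genes were higher in injured than in contralateral RaptorKO nerves at 5 dpc for 14 of 18 tested members, with a median of 1.69. The 2 lower were Dusp1 (-0.59), a MAP kinase phosphatase gene, and Nr4a1 (-1.67), an orphan nuclear receptor gene. Fos had 4.05, 5.27, 4.96 and 7.34 CPM in contralateral and 101, 116 and 88.3 CPM in injured nerves (4.24). Fosl1, a Fos family gene, went from 0 to 0.64 CPM to 40.2, 50.8 and 39.2 CPM (7.26). The stress factor gene Atf3 rose by 4.73, Myc by 2.79, and Junb by 2.43 on the log2 scale. Klf4, a Krüppel-like factor, rose from 21.9, 19.2, 22.7 and 14.8 CPM to 47, 44.7 and 50.4 CPM (1.26, adjusted p = 4.12e-05). In controls it had 13.8, 15.4 and 18.7 CPM before and 17.7, 14.5 and 11.8 CPM after injury, and the difference was 1.39 (SE 0.25, adjusted p = 0.00868). Without both libraries of control 3 the adjusted p of this difference was 0.0566.

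Of 26 tested trophic ligands and receptors 10 were higher and 10 lower, where 30.5% and 28.5% of all genes were. Cntf, ciliary neurotrophic factor of myelinating SCs, fell from 487, 560.3, 360.1 and 526 CPM to 12.9, 11.9 and 11 CPM, a log2 fold change of -5.34 (SE 0.18, adjusted p = 7.39e-09). Gfra1, a GDNF receptor, rose from 259 ± 24.7 CPM (SD, n = 4) to 1103 ± 17.6 CPM (SD, n = 3). The LIF receptor gene Lifr fell by 0.94, which was less than in controls (-1.74) by 0.79 (SE 0.15, adjusted p = 0.0149). Without control injured 2 the adjusted p of that difference was 0.0501.

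**Figure D2:**
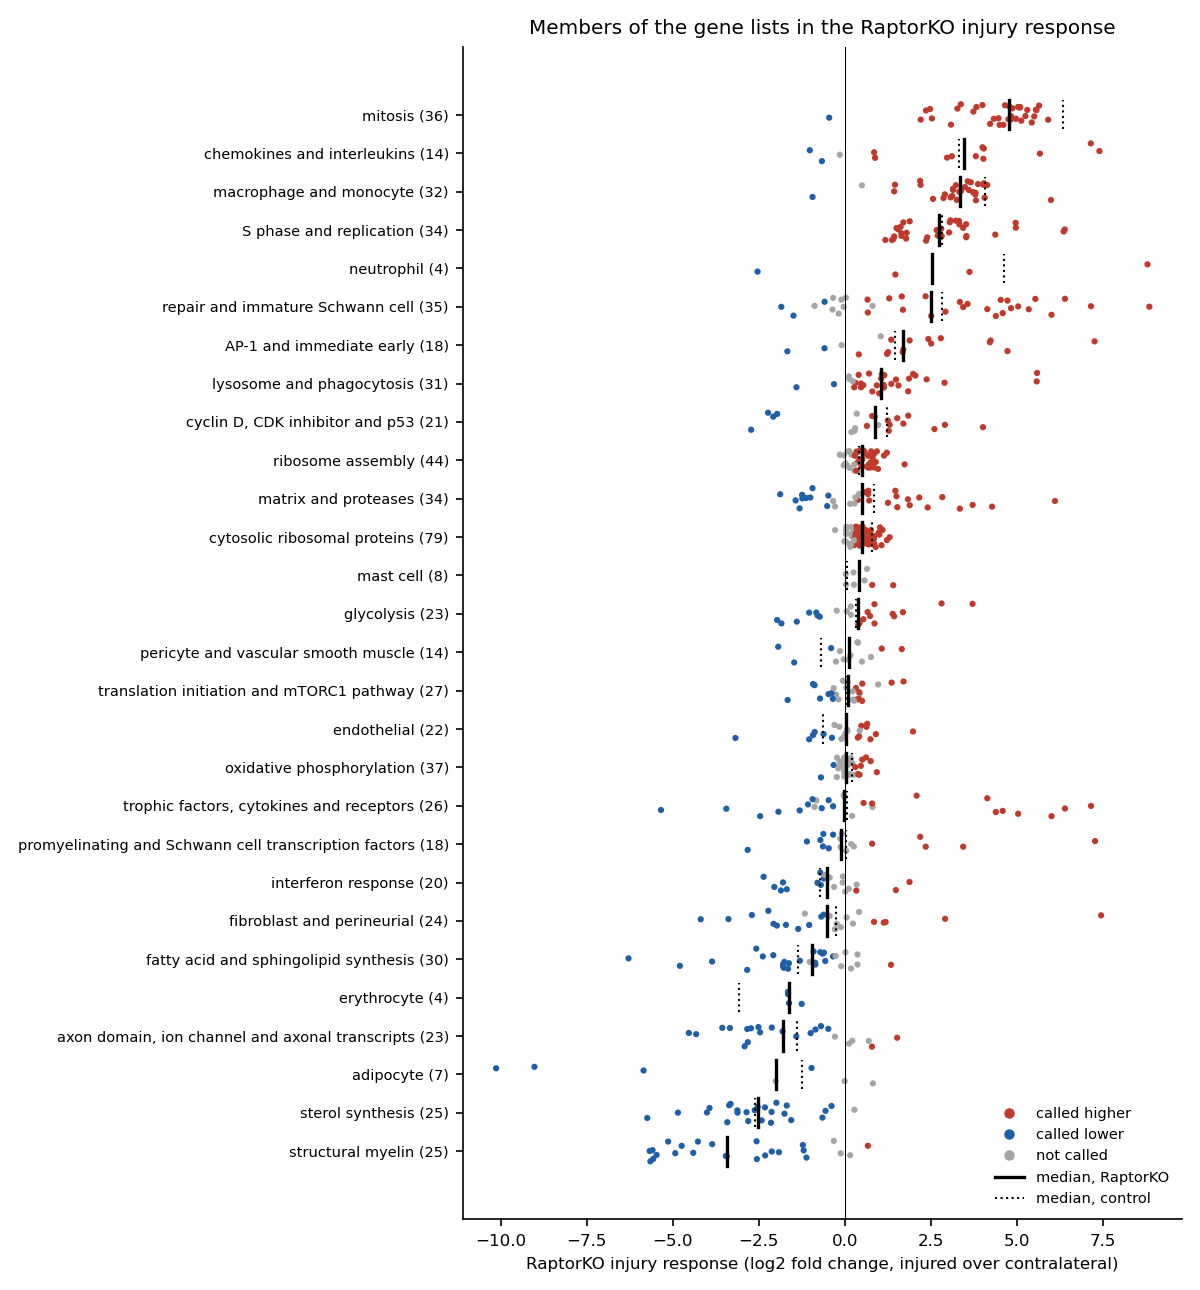
Log2 fold change of injured over contralateral RaptorKO nerves for each tested member of the gene lists with 4 or more tested members (points, with the number tested in brackets). Solid bars are list medians in RaptorKO nerves and dotted bars those in controls. Mitosis genes had the highest median (4.77) and structural myelin genes the lowest (-3.43).

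Genes of DNA replication and of mitosis rose almost without exception. All 34 tested S phase genes were higher in injured RaptorKO nerves, with a median of 2.75. E2f1, a factor of S phase entry, had 3.73, 4.5, 4.1 and 4.25 CPM in contralateral and 90.2, 97.7 and 72.3 CPM in injured nerves (4.37). Tk1, thymidine kinase, went from 0.153 to 0.64 CPM to 43.2, 39.5 and 30.8 CPM (6.36), and Mcm5, a subunit of the replicative helicase, from 4.48 to 6.34 CPM to 72.4, 59.7 and 60.7 CPM (3.53). Of 36 mitosis genes 35 were higher, with a median of 4.77, and Pttg1, which encodes securin, was lower (-0.45). Mki67, which encodes the proliferation marker Ki67, had 13.3, 13.4, 12.7 and 18.8 CPM in contralateral and 421, 377 and 405 CPM in injured RaptorKO nerves, a log2 fold change of 4.79 (SE 0.14, adjusted p = 3.67e-09). Top2a, topoisomerase II alpha, went from 5.05 ± 0.901 CPM (SD, n = 4) to 172 ± 9.9 CPM (SD, n = 3), and Ccna2, cyclin A2, from 2.3 ± 0.37 to 90.5 ± 15.4 CPM. Ccnb1, cyclin B1, rose by 5.65 and the kinetochore gene Cenpe by 4.0 on the log2 scale.

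For 16 of the 36 mitosis genes the rise was smaller in RaptorKO than in control nerves. The 36 genes summed to 2270, 2154 and 1975 CPM in injured RaptorKO nerves and 4043, 3833 and 3931 CPM in injured controls. In contralateral nerves the sums were 139, 138, 125 and 156 CPM for RaptorKOs and 117, 132 and 111 CPM for controls. The injured groups thus did not overlap, and the contralateral groups did. Of the 36 genes 35 had a negative difference between responses, with a median of -1.46, and 16 were called, against 1.41% of all 12851 genes tested for the difference. This count was 11 without control contralateral 2, 10 without both libraries of control 3, and 11 to 18 over all single libraries left out. Cenpf, a centromere protein gene on chromosome 1, 189640606 to 189688086, rose from 5.23, 3.21, 2.57 and 5.41 CPM to 84.5, 70.2 and 72.5 CPM in RaptorKO nerves and from 0.546, 0.897 and 0.878 CPM to 169, 139 and 157 CPM in controls. Its difference was -3.38 (SE 0.35, adjusted p = 0.000175). Mki67 in controls went from 3.0, 5.95 and 5.37 CPM to 794, 678 and 680.2 CPM, a difference of -2.43 (SE 0.25, adjusted p = 0.000175). For both genes the RaptorKO libraries lay above all controls when uninjured and below all controls when injured. Top2a (-2.51), Ccna2 (-2.82), and Cenpe (-1.23) differed likewise and kept their calls in all alternatives run. The difference of Ccnb1 (-3.04) lost its call without control contralateral 1 (adjusted p = 0.0683) or 2 (adjusted p = 0.076) and with same-numbered nerves as a block (adjusted p = 0.0651).

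S phase genes had a difference closer to 0. Their sums were 1574 to 1783 CPM in injured RaptorKO nerves and 1823 to 1894 CPM in injured controls. Of 34 members 31 had a negative difference, with a median of -0.36. Where 1.41% of all genes were called below 0, 4 of the members were called. They were Uhrf1 (-1.65), which maintains DNA methylation, Chaf1b (-1.77), a chromatin assembly factor gene, Lig1 (-0.77), DNA ligase I, and Rrm1 (-0.65), a ribonucleotide reductase gene. The 4 were 0 without control contralateral 2 or 3, 1 without RaptorKO contralateral 1, RaptorKO injured 3, or control injured 3, and 2 without RaptorKO contralateral 2, RaptorKO injured 1 or 2, or control injured 1 or 2. Among the genes that steer entry into the cycle 12 of 21 were higher and 4 lower, where 30.5% and 28.5% of all genes were. Ccnd1, cyclin D1, rose from 139, 152, 142 and 150.4 CPM to 1168, 1047 and 1087 CPM (2.91). Among the 4 that fell were Cdkn1a (-2.23) and Cdkn1b (-1.96), inhibitors of cyclin-dependent kinases, and Sesn1 (-2.08), a p53 target. The levels of Ccnd1 in injured nerves overlapped between genotypes (1034 to 1323 CPM in controls), and its difference of -0.66 (SE 0.14, adjusted p = 0.0221) lost its call without control contralateral 2 (adjusted p = 0.0723).

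The promoters of 2 mitosis genes are shown because the letters that mark many genes of this group stand close to their starts. The lines give the 250 bases before the start from RefSeq, 5′ to 3′ in the direction of the gene, on the minus strand of GRCm38.p6 (Top2a, chr11:99024190-99024439, and Mki67, chr7:135716380-135716629). Capitals mark TTTGAA, the cell cycle genes homology region (CHR), and CCAAT on either strand.
Top2a: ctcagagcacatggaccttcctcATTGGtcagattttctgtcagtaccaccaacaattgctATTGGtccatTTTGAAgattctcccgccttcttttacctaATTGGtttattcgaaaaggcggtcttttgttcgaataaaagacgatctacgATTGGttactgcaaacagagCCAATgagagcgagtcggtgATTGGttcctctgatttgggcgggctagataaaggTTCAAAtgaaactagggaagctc
Mki67: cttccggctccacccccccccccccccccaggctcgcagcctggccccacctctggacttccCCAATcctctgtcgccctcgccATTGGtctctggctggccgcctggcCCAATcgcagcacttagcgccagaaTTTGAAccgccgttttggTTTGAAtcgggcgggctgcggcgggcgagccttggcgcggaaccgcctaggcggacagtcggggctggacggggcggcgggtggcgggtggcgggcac
Each holds 2 copies of TTTGAA, and Top2a holds 6 and Mki67 3 copies of CCAAT. Over the window from 250 bases before to 50 after the start, TTTGAA was present in 20 of 29 matched mitosis genes (69.0%), in 4 of 28 S phase genes (14.3%), and in 20.2% of 27025 genes. CCAAT was present in 72.4% of the mitosis genes, 57.1% of the S phase genes, and 41.1% of all genes.

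**Figure D3:**
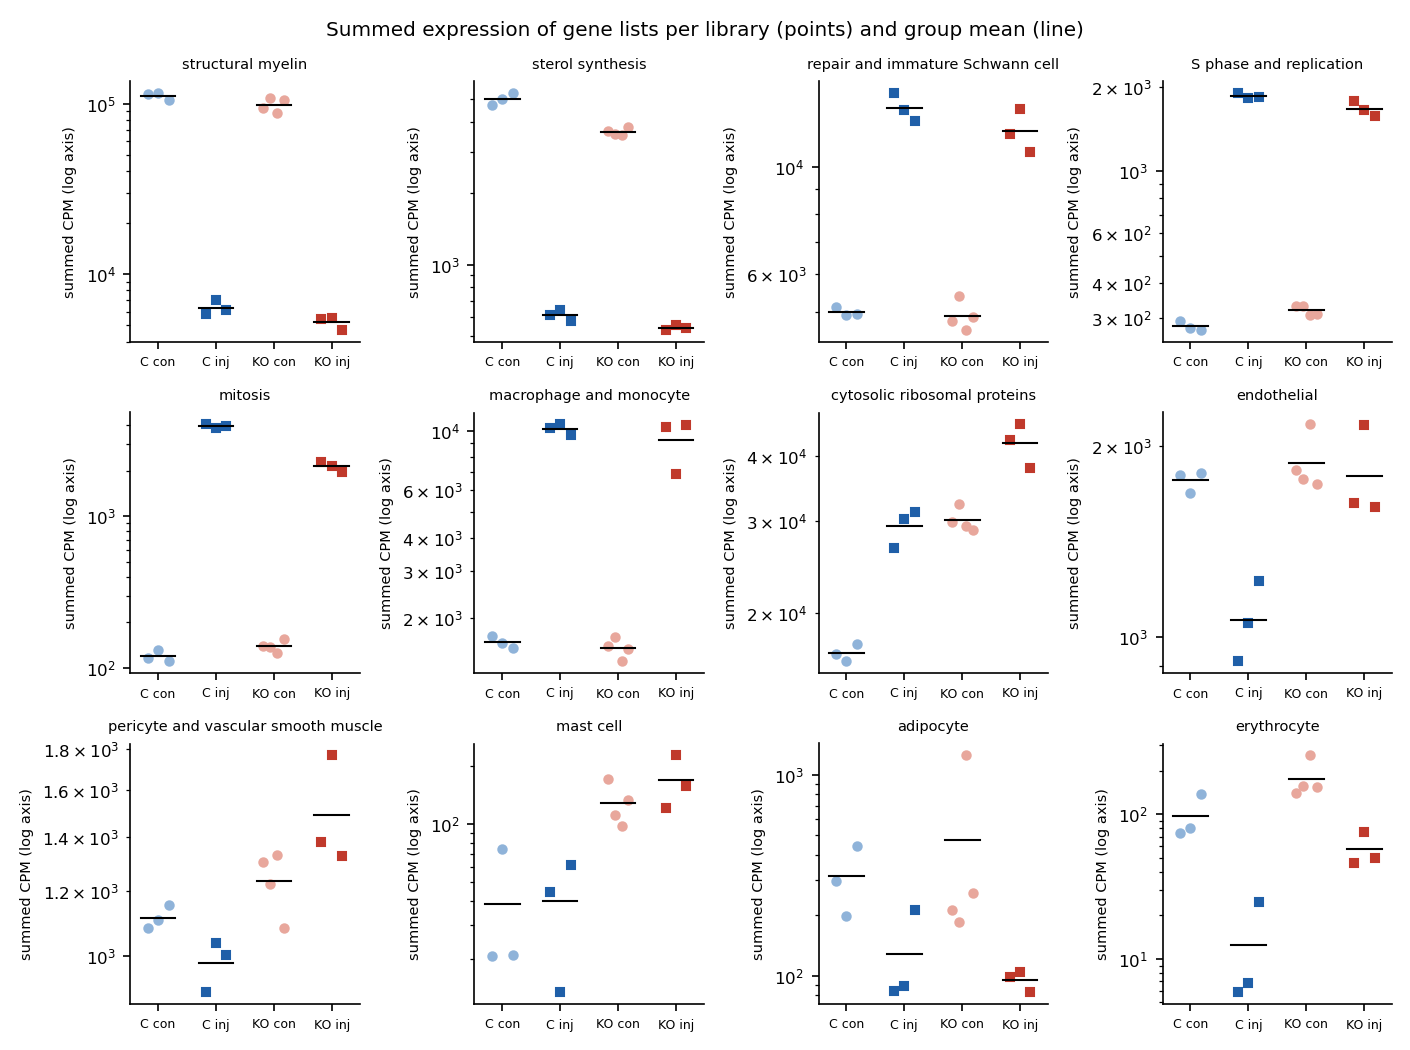
Summed CPM of 12 gene lists (log axes) in each library, with a line at the group mean and groups as in the plot of 16 genes. Mitosis genes of the injured RaptorKO nerves sum to 1975 to 2270 CPM, below the 3833 to 4043 CPM of the injured controls. Macrophage genes are lowest in RaptorKO injured 2, and adipocyte genes stand out in RaptorKO contralateral 3.

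Genes of protein synthesis rose by small amounts. Of 79 cytosolic ribosomal protein genes 59 were higher in injured RaptorKO nerves and 20 did not pass, with a median of 0.49. Only 6 of them rose more than 2-fold. Rps2 had 455, 509, 474 and 435 CPM in contralateral and 1124, 1248 and 920.4 CPM in injured nerves (1.22), Rpsa rose by 1.10 and Rplp0, a protein of the ribosomal stalk, by 1.07 on the log2 scale. Rpl4 had 1343, 1415 and 1324 CPM after injury and 1333, 1354, 1282 and 1328 CPM without it (0.03, adjusted p = 0.742). The list summed to 28808 to 32342 CPM in contralateral and 37945 to 45995 CPM in injured RaptorKO nerves, and to 16169 to 17426 and 26594 to 31173 CPM in controls. The difference between responses was negative for 78 of 79 genes with a median of -0.30. By edgeR's quasi-likelihood test 0 were called, 27 had an unadjusted p below 0.05, DESeq2 called 8, and the fit with same-numbered nerves as a block called 1. The uninjured RaptorKO nerves thus lay above the uninjured controls for this list. Many ribosomal protein genes have near-identical processed pseudogenes, among which the counting may split reads.

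Of 44 ribosome assembly genes 31 were higher and 13 did not pass. Ncl, nucleolin, rose from 424 ± 3.69 CPM (SD, n = 4) to 811 ± 39.6 CPM (SD, n = 3) and Npm1, nucleophosmin, from 334 ± 3.97 to 626 ± 32.1 CPM. Nhp2 (1.74) and Fbl (1.22), both of small nucleolar ribonucleoproteins, rose as well. The list's difference between responses had a median of 0.08. In the mTORC1 pathway and translation initiation 8 of 27 genes were higher and 7 lower, near the shares of all genes (30.5% and 28.5%), and the first number was 5 without RaptorKO injured 1. Eif4a1, the helicase of the initiation complex, rose from 181, 184, 178 and 168 CPM to 580.2, 563 and 604 CPM (1.71) and Eif4ebp1, the translational repressor that mTORC1 inactivates, rose by 1.36. Deptor, an inhibitor that binds mTOR, fell by 1.66 and Tsc1, a negative regulator upstream of mTORC1, by 0.88. In the difference between responses 1 of the 27 genes was called, Eif4b (-0.53), a cofactor of the helicase, and it was lost without any one library other than RaptorKO contralateral 2 and control injured 3 (adjusted p up to 0.097) and with same-numbered nerves as a block (adjusted p = 0.0693).

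Macrophage genes rose in each RaptorKO nerve, though not evenly. Of 32 tested genes 30 were higher, with a median of 3.35. Spp1, osteopontin, which SCs express too, was lower (-0.94), and the scavenger receptor gene Cd163 did not pass (0.50). Cd68, a lysosomal protein of macrophages, had 20.2, 17.6, 18.2 and 43 CPM in contralateral and 412, 184 and 423 CPM in injured nerves, a log2 fold change of 3.79 (SE 0.36, adjusted p = 7.29e-06). Adgre1, which encodes F4/80, had 105, 39.7 and 126 CPM after injury and 7.68 to 11.7 CPM without. In both genes RaptorKO injured 2 lay at less than 1 in 2 of the level of the other injured libraries. Lgals3, galectin 3, did not follow this order, with 1714, 2198 and 1642 CPM after injury against 25.3 to 34.1 CPM (5.99). C1qa (3.26), a subunit of complement C1q, Laptm5 (3.49), and Trem2 (4.04), a lipid receptor of phagocytes, rose too. Whichever of the 7 libraries was left out, 30 or 31 members were higher.

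Against controls 32 of 33 macrophage genes had a negative difference, with a median of -0.64. Where 1.41% of all genes were called below 0, 4 of these were called. They were Cx3cr1 (-2.02), the fractalkine receptor gene, the cathepsin gene Ctss (-1.51), Trem2 (-1.41), and the lysozyme gene Lyz2 (-1.08). The 4 were 0 without both libraries of control 3. They were 1 without any one of RaptorKO contralateral 1 or 4, control contralateral 1 to 3, and control injured 2, and 2 without RaptorKO contralateral 3, RaptorKO injured 1, or control injured 1 or 3. In the other direction they were 7 with DESeq2 and 8 without a count filter or with same-numbered nerves as a block. Summed levels in the injured nerves overlapped, at 10365, 6883 and 10489 CPM in RaptorKOs and 10273, 10588 and 9646 CPM in controls.

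Of 31 lysosome and phagocytosis genes 26 were higher and 2 lower in injured RaptorKO nerves. Abca1, the cholesterol efflux pump, rose from 32.2, 15.8, 41 and 36.6 CPM to 1461, 1399 and 1669 CPM (5.59). The protease gene Ctsd rose from 369.8 ± 13.6 CPM (SD, n = 4) to 2769 ± 500.5 CPM (SD, n = 3), and the hexosaminidase gene Hexa by 2.05. Pros1, protein S, a ligand that bridges dying cells to TAM receptors, rose by 1.99. Of 14 tested chemokines and interleukins 11 were higher and 2 lower. Cxcl14 had 1.3 to 4.38 CPM in contralateral and 129.9, 181 and 159.6 CPM in injured nerves (5.67). The monocyte attractants Ccl9 (3.81) and Ccl8 (7.15) and the scavenger ligand Cxcl16 (3.11) rose. Cxcl12, a chemokine of stromal and endothelial cells, fell by 0.66 and the alarmin gene Il33 by 1.02.

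Of 20 tested interferon response genes 9 were lower and 3 higher, where 28.5% and 30.5% of all genes were, with a median of -0.50. The 9 were 7 to 11 when single libraries were left out. Rsad2, an antiviral enzyme, had 18.6, 17.2, 13.8 and 17.6 CPM in contralateral and 2.67, 3.14 and 4.02 CPM in injured nerves (-2.36). Ifit3 fell by 2.05 and Cmpk2 by 1.69 on the log2 scale. In the difference edgeR's quasi-likelihood test called 0 of 21 genes, 3 had an unadjusted p below 0.05, and DESeq2 called 1. Other leukocytes gave few tested genes. Of the 17 lymphocyte markers 2 passed the count filter, and both Cd4 (2.31) and Il7r (4.66) were higher, while the T cell genes Cd3d, Cd3e, and Cd3g stayed below it. Of 14 neutrophil markers 4 were tested, of which 3 were higher, or 1 without RaptorKO injured 1 or 3. Csf3r, the G-CSF receptor gene, rose from 0.763 to 4.16 CPM to 34.5, 20.8 and 35.8 CPM, and Lcn2, a siderophore-binding protein gene that other cells express too, fell from 11.7 to 19.3 CPM to 1.78, 4.87 and 1.28 CPM. The granule genes Mpo, Elane, Ltf, and Camp stayed under the filter.

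Endothelial genes were called higher or lower in RaptorKO nerves in shares near those of all genes (30.5% and 28.5%). Of 22 endothelial genes 8 were higher, 6 lower, and 8 did not pass, with a median of 0.04, where controls had 2 higher, 12 lower, and a median of -0.64. Pecam1, the pan-endothelial adhesion molecule CD31, rose from 112, 107, 118 and 106 CPM to 155, 244 and 161 CPM (0.75 (SE 0.15, adjusted p = 0.00136)). RaptorKO injured 2 was the highest, as in the sum of endothelial genes, and without it 5 endothelial genes were higher. The endothelial genes that fell included Mfsd2a (-3.18), a lipid transporter, the glucose transporter gene Slc2a1 (-1.03), and the efflux pump gene Abcb1a (-0.92). Kdr, the VEGF receptor 2, fell by 0.87. For 21 of 22 endothelial genes the difference between responses was positive, with a median of 0.72. Over all genes tested for the difference 1.07% were called above 0. The difference was called for Mfsd2a (1.46), Vwf, Tek (0.88), the angiopoietin receptor gene, and Kdr (0.74), and DESeq2 called 10. The 4 were 1 without any one of RaptorKO contralateral 1 or 4, RaptorKO injured 2, control contralateral 1 to 3, and control injured 1, and 2 without RaptorKO contralateral 2 or control injured 2. Vwf, von Willebrand factor, had 269, 366 and 254 CPM in injured and 199.5, 249, 229.8 and 231 CPM in contralateral RaptorKO nerves and 115, 145 and 152 and 242, 225 and 207 CPM in controls. Its difference was 1.09 (SE 0.19, adjusted p = 0.00862), and its rise in RaptorKO nerves (0.38, adjusted p = 0.0316) lost its call without RaptorKO injured 2 (adjusted p = 0.138) and without RaptorKO contralateral 1 (0.0932), 3 (0.0572), or 4 (0.0546).

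Pericyte and vascular smooth muscle genes showed a like pattern. Of 14 genes 2 were higher and 3 lower in RaptorKO nerves, and 1 higher and 11 lower in controls, with medians of 0.13 and -0.69. Over all genes tested 30.5% were higher and 28.5% lower in RaptorKO nerves, and 32.4% and 32.9% in controls. Rgs5, a pericyte marker, rose from 240.1, 264, 278 and 214 CPM to 448, 620.2 and 512 CPM (1.07). In controls it had 252, 289 and 295 CPM without and 209, 260.2 and 285 CPM after injury, and the difference was 1.23 (SE 0.19, adjusted p = 0.00408). Tagln, a contractile protein of smooth muscle, fell from 323, 269, 297 and 237 CPM to 55.1, 105 and 61.1 CPM (-1.93). Mcam, which SCs and pericytes both express, rose by 1.66 and is also a member of the repair list. Its difference was called below 0 (-0.96), with the limits given above for the repair genes. Besides Rgs5 the difference was called above 0 for Notch3 (1.14), a receptor of mural cells, and Cspg4 (0.74), which encodes NG2. Over all genes 1.07% were called above 0. The 3 genes were 1 without RaptorKO injured 1 or control contralateral 2 and 5 with DESeq2 or without a count filter. The list summed to 1381, 1766 and 1326 CPM in injured RaptorKO nerves, highest in RaptorKO injured 2, and to 901 to 1037 CPM in injured controls, so that each of the 3 RaptorKO libraries lay above all controls.

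Of 24 fibroblast and perineurial genes 5 were higher and 11 lower, where 30.5% and 28.5% of all genes were. Col1a1, a collagen of fibroblasts, rose from 1445, 1381, 1526 and 969.7 CPM to 2988, 2476 and 3327 CPM (1.13). Itgb4, an integrin of SCs and perineurial cells, fell by 1.71 and Thy1 rose by 2.92 on the log2 scale. Postn, periostin, had 198, 50.3, 301 and 66.5 CPM in contralateral nerves, where libraries 1 and 3 were high, and 196, 189 and 233 CPM after injury, so the groups overlapped. In controls Postn rose from 29 to 89.6 to 474 to 828 CPM, and the difference of -2.82 (SE 0.74, adjusted p = 0.0601) did not pass. It passed with same-numbered nerves as a block (-2.87, adjusted p = 0.0168). Among 34 matrix and protease genes 18 were higher and 10 lower, where 30.5% and 28.5% of all genes were. The count of lower genes was thus near the share of all genes. Timp1, an inhibitor of metalloproteases, went from 1.99 to 3.61 CPM to 209, 192 and 211 CPM (6.11) and the urokinase receptor gene Plaur rose by 4.28. Thbs2, thrombospondin 2, rose from 62.4 to 89.6 CPM to 1048, 859 and 1046 CPM in RaptorKO and from 23.3 to 34.6 to 764 to 1044 CPM in control nerves, a difference of -1.21 (SE 0.22, adjusted p = 0.0105). With Tnc, Mmp14 (-1.04) and Mmp19 (-1.03), both metalloprotease genes, and Adamts1 (-1.07), this made 5 matrix genes called below 0. Over all genes 1.41% were called below 0. The 5 matrix genes were 2 without control contralateral 3 and 3 without any one of RaptorKO contralateral 1, control contralateral 1 or 2, and control injured 2. Laminin and basal lamina collagen genes were among the 10 that fell after injury in RaptorKO nerves, such as Lamb1 (-1.13), Lamc1 (-0.51), Col4a1 (-1.31), and Col4a2 (-1.24).

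Channels and adhesion molecules of the axon-SC unit fell for 17 of 23 tested genes, with a median of -1.81. Kcnab2 (0.79), a Kv1 channel subunit gene, and Nrcam (1.52), an adhesion molecule gene of the node, were higher. Axonal RNA and SC RNA are not separated here, and both Kcna1 and Kcna2, Kv1 channel subunits known from the juxtaparanode, may come from either. Kcna1 had 243, 266, 184 and 185 CPM in contralateral and 36, 31.8 and 32.2 CPM in injured RaptorKO nerves, a log2 fold change of -2.73 (SE 0.16, adjusted p = 1.72e-07). In controls it fell from 223, 250.4 and 217 to 135, 128 and 119 CPM, and the difference was -1.87 (SE 0.18, adjusted p = 0.000175). Kcna2 had log2 fold changes of -3.34 in RaptorKO and -2.05 in control nerves, a difference of -1.31 (SE 0.19, adjusted p = 0.00296). The injured RaptorKO libraries lay below all 3 injured controls for both genes, while the contralateral ranges overlapped for Kcna1. Adam23, an LGI receptor of the same complex, fell in RaptorKO nerves (-0.48, adjusted p = 0.00676) and rose in controls (0.52). Its difference was -1.02 (SE 0.15, adjusted p = 0.00275). The sodium channel gene Scn7a fell by 2.82 and the adhesion molecule gene Cadm3, an internodal nectin-like protein, by 3.56. For Cadm3 the fall was smaller than in controls (0.88 (SE 0.18, adjusted p = 0.0213)), a call lost without control contralateral 1 (adjusted p = 0.0559), control contralateral 2 (adjusted p = 0.0612), or control injured 2 (adjusted p = 0.052).

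Energy metabolism changed little in its respiratory part. Of 37 oxidative phosphorylation genes 9 were higher, 2 were lower, and 26 did not pass, with a median of 0.04. Sdha, the catalytic subunit of complex II, fell by 0.69 and Cox5a of complex IV rose by 0.93. For glycolysis and glucose transport the counts were 12 higher and 7 lower of 23. Over all genes tested 30.5% were higher and 28.5% lower. Ldha, the M subunit of lactate dehydrogenase, rose from 101, 117, 115 and 89.7 CPM to 209, 169 and 201 CPM (0.86), and Ldhb, its H subunit, fell from 365, 439.5, 341 and 383 CPM to 106, 106 and 82.6 CPM (-1.97). Hk3, a hexokinase of myeloid cells, rose by 3.72 and the muscle-type phosphofructokinase gene Pfkm fell by 1.84. In the difference edgeR's quasi-likelihood test called 0 genes of either list. An unadjusted p below 0.05 was found for 6 of 37 and 5 of 24 genes, and DESeq2 called 1 and 0.

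Markers of tissues next to the nerve were found in the contralateral libraries. Of 7 tested adipocyte genes 4 were lower after injury. Plin4, a lipid droplet protein, had 43.3, 80.7, 114 and 132 CPM in contralateral and 1.6, 1.97 and 1.19 CPM in injured nerves (-5.85). Cfd (adipsin) had 12.3, 0.229, 167 and 0.258 CPM in the 4 contralateral libraries, and at most 0.0915 CPM in an injured library. Its call (adjusted p = 0.0136) was lost without RaptorKO injured 1 (adjusted p = 0.0513) or 3 (adjusted p = 0.0595). The 4 adipocyte genes were 2 without any one of RaptorKO contralateral 1 or 3 and RaptorKO injured 1 or 3. All 4 tested hemoglobin genes were lower, such as Hbb-bs (56.1, 60.8, 93.6 and 62.6 CPM before and 20.0, 26.4 and 18.9 CPM after injury, -1.65). Hba-a1 and Hba-a2 are near-identical copies between which reads can be split. Of 15 skeletal muscle genes 2 were tested, and Tnnt3, a fast troponin gene, fell from 2.52 to 24.7 to 0.533 to 0.865 CPM, and was under the count filter without RaptorKO contralateral 1 or 3. Mast cell genes were tested for 8 of 14 markers. Cma1, mast cell chymase, rose from 15.7, 12.9, 11 and 12.4 CPM to 21.9, 49.2 and 32.5 CPM (1.41, adjusted p = 0.000597), Kit rose by 0.80 (adjusted p = 0.0498), and the other 6 did not pass. The call of Kit, which other cells express as well, was lost without RaptorKO contralateral 1 (adjusted p = 0.0520), 2 (0.102), or 3 (0.0961) and without RaptorKO injured 2 (0.211) or 3 (0.0959). Tpsb2, a mast cell tryptase, had 24.3, 49.2 and 24.4 CPM after and 37.9, 23.7, 20.7 and 26.3 CPM without injury, which overlapped.

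Across all genes the RaptorKO response resembled that of controls. Over the 12200 genes with a fold change in each genotype Pearson's r was 0.952 on the log2 scale, and 89.26% had the same sign. The 2 responses share no library. Of the genes called higher in RaptorKO nerves 87.36% were also called higher in controls, and of those lower 90.44%. In the other direction 82.62% of the genes higher and 79.05% of those lower in controls were called in RaptorKO nerves. The standardised major axis slope of RaptorKO on control fold changes was 0.876, where 1 would mean responses of equal spread. The direct test of the difference called 137 genes above 0 (1.07%) and 181 below 0 (1.41%) of 12851. Before adjustment 1827 genes had a p below 0.05. Of 306 called genes that were tested in both responses, 112 had a weaker rise and 79 a weaker fall in RaptorKO nerves, 6 a stronger rise and 19 a stronger fall. A further 32 were lower and 19 higher in controls alone, 15 lower and 11 higher in RaptorKO nerves alone, and 13 were called in opposite directions. DESeq2 called 245 genes above and 353 below 0. The counts leaned on single libraries and were 54 above and 78 below 0 without control contralateral 2. They also fell by more than 1.5 times without control contralateral 1 (64 and 103), control contralateral 3 (76 and 94), control injured 2 (75 and 94), RaptorKO contralateral 1 (78 and 101), and RaptorKO injured 1 (90 and 113), and above 0 without control injured 1 (83). Both control 3 libraries differ from the other 11 libraries in sex-linked genes, and without them 51 genes were above and 62 below 0.

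**Figure D4:**
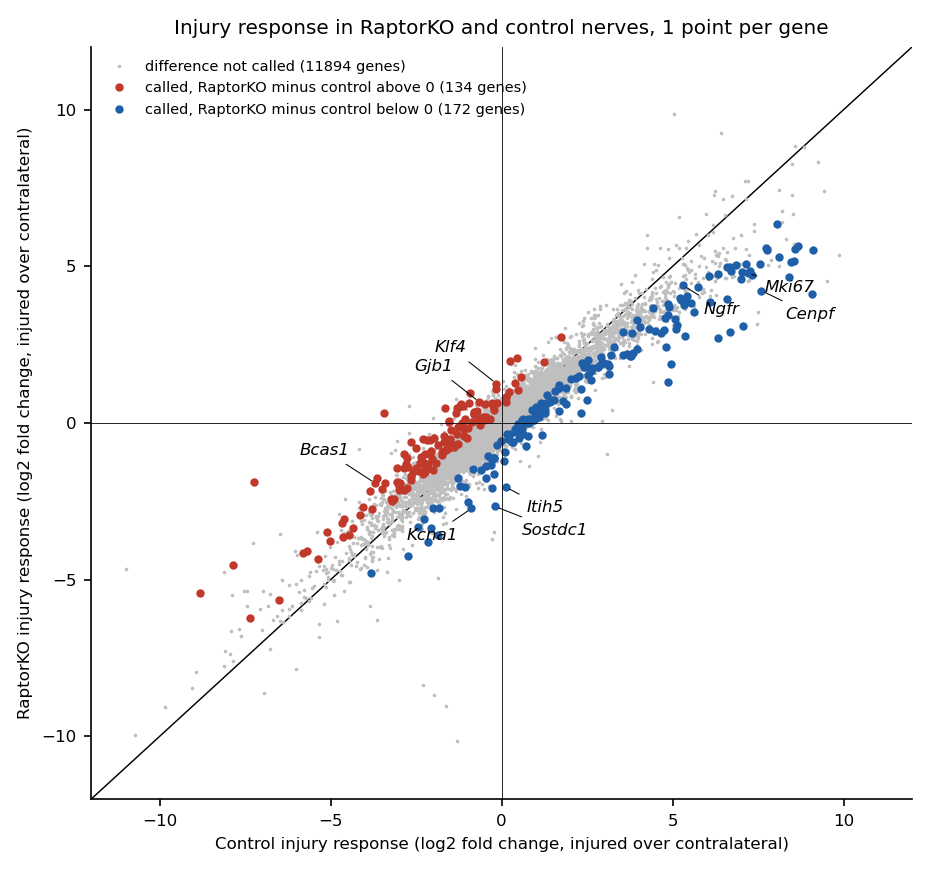
Log2 fold change of injured over contralateral nerves in RaptorKO (vertical) against control mice (horizontal), 1 point per gene tested in both. The diagonal marks equal responses. Of the coloured genes, called in the test of the difference, 134 lie above it (red) and 172 below it (blue).

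Some of the strongest differences fell outside the lists. Itih5, which encodes a hyaluronan-binding heavy chain, lies on chromosome 2, 10153571 to 10256529. It had 417, 424, 409.6 and 405 CPM in contralateral and 112, 82.3 and 107 CPM in injured RaptorKO nerves, a log2 fold change of -2.05 (SE 0.12, adjusted p = 1.96e-07). Control nerves held 396, 444 and 416 CPM without and 402, 531 and 462 CPM after injury, and the difference was -2.19 (SE 0.17, adjusted p = 1.02e-05). Sostdc1, a secreted BMP and Wnt antagonist, fell from 98.8, 91.5, 91.9 and 124 CPM to 21.4, 11.3 and 15.7 CPM in RaptorKO nerves, where controls had 124, 123 and 129 and 81.7, 139 and 112 CPM. Its difference was -2.48 (SE 0.28, adjusted p = 0.000423). For Itih5 and Sostdc1 all injured RaptorKO libraries lay below all 10 other libraries.

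The opposite pattern, a weaker fall, was found for Fbln5, an elastic fiber protein, which went from 124, 133, 112 and 113 CPM to 25.4, 28.5 and 30.6 CPM in RaptorKO and from 222 to 250.2 to 19.9 to 24.4 CPM in control nerves (1.36 (SE 0.14, adjusted p = 0.000175)). F3, tissue factor, had log2 fold changes of -1.0 in RaptorKO and -2.84 in control nerves (1.82 (SE 0.22, adjusted p = 0.000545)), and Daam2, a formin of Wnt signaling, of -1.41 and -2.75 (1.31 (SE 0.19, adjusted p = 0.00296)). Both had lower levels in contralateral RaptorKO than in contralateral control nerves (45.2 to 64.3 against 116 to 132 CPM for F3). Slc43a2, a transporter of large neutral amino acids, rose from 23.8, 24.4, 20.6 and 14.9 CPM to 97.8, 68.9 and 84.8 CPM in RaptorKO nerves. In controls it was 81.5 to 98.3 CPM without and 91.8 to 116 CPM after injury, so the genotypes differed in uninjured nerves and overlapped after injury (1.73 (SE 0.22, adjusted p = 0.00114)). Tmem176a (1.15), the cartilage collagen gene Col9a2 (1.53), the receptor phosphatase gene Ptprm (0.90), and the class II antigen presentation gene H2-DMb1 (2.01) completed the 10 largest positive calls by p, with Gjb1 and Bcas1.

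Weaker rises included Dclk1, a microtubule-binding kinase, which rose from 12.5, 11.8, 9.91 and 10.3 CPM to 151, 187 and 174 CPM in RaptorKO and to 242 to 304 CPM in control nerves (-1.33 (SE 0.17, adjusted p = 0.0011)). Epha5, an ephrin receptor, rose from 6.61 to 9.28 CPM to 31.5, 40.5 and 34.2 CPM and in controls to 116 to 136 CPM (-1.61 (SE 0.20, adjusted p = 0.000772)). Nt5dc2, a nucleotidase domain gene, rose by 3.0 in RaptorKO and 5.10 in control nerves (-2.11 (SE 0.26, adjusted p = 0.000772)). All injured RaptorKO libraries lay below all injured controls for these 3 genes. Among genes called in opposite directions, Olfml2a (-0.37 in RaptorKO, 1.19 in control nerves), Itga8 (0.60 and -1.19), an integrin subunit, Atrn (0.29 and -0.81), and the monoglyceride lipase gene Mgll (-0.72 and 0.71) joined Gjb1 and Adam23. The RaptorKO call of Olfml2a was lost without RaptorKO contralateral 1, 3, or 4 or RaptorKO injured 1 (adjusted p up to 0.102) and, with library totals, at an adjusted p of 0.175, or with same-numbered nerves as a block, at 0.0646. That of Itga8 was lost without RaptorKO contralateral 1 or 3 or RaptorKO injured 1 or 3 (adjusted p up to 0.0738), and that of Atrn without any RaptorKO library but contralateral 4 (adjusted p up to 0.169). The differences of these 3 genes stayed called in the alternatives run.

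**Figure D5:**
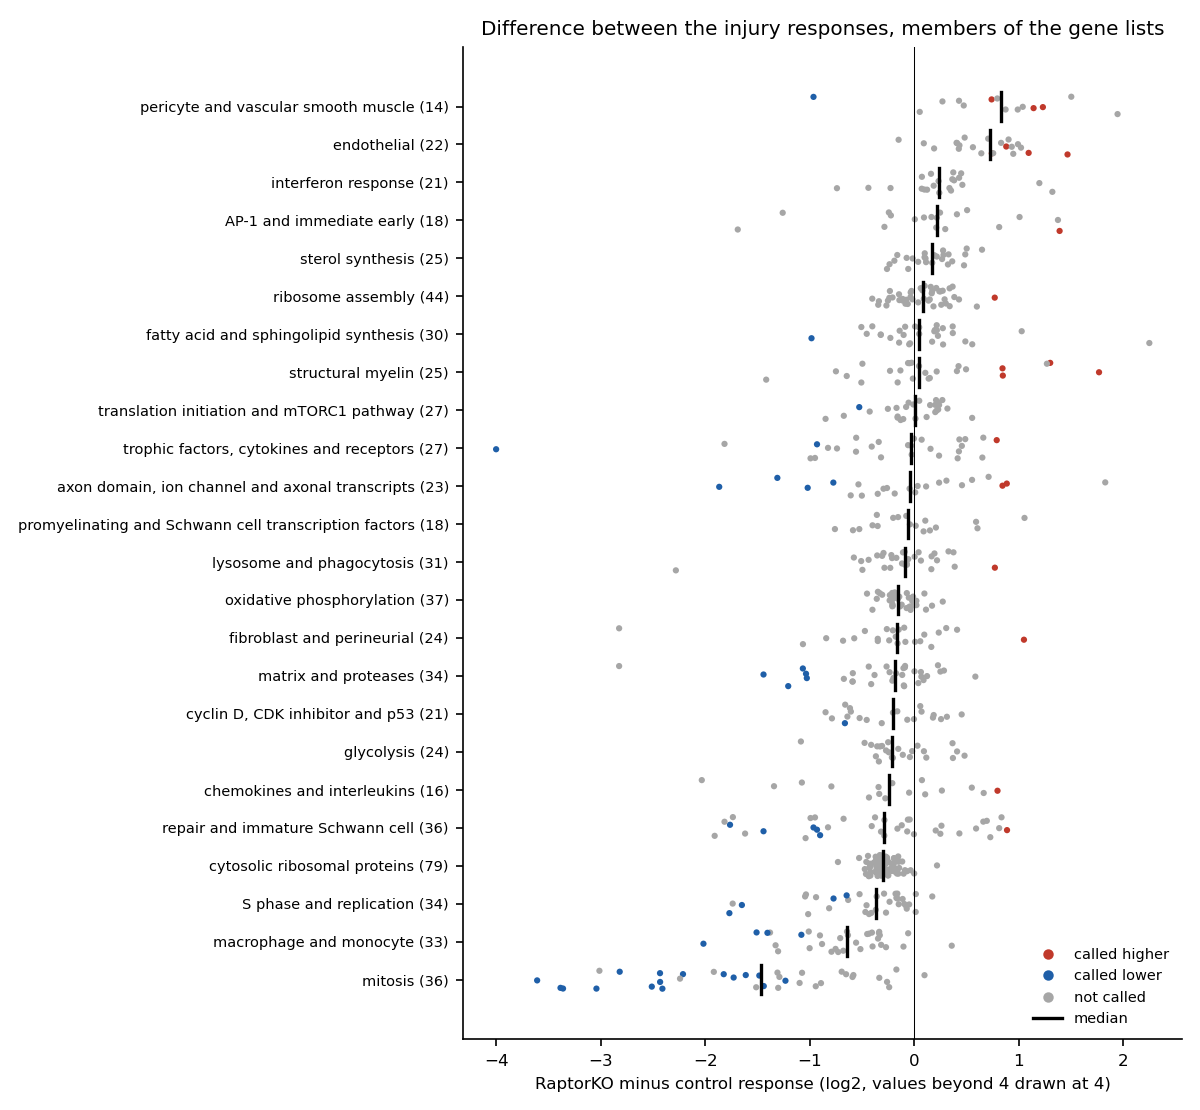
Difference between the RaptorKO and the control response (log2) for each tested member of lists with 12 or more members tested (points, number in brackets), with list medians as bars. Mitosis genes have the lowest median (-1.46) and pericyte and endothelial genes the highest (0.83 and 0.72).

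Gene models on the other strand overlap Rptor, S100b, Ddn, Col24a1, Mybph, Mbp, Prx, Tspan2, Gldn, Bcas1, Nfasc, Hmgcs1, Idi1, Elovl6, Elovl7, Cers4, Pou3f1, Jun, Shh, Runx2, Ncam1, Olig1, Bdnf, Tnc, Gfap, Mcam, Cdh2, Dusp1, Fosl1, Atf3, Junb, Gfra1, Tk1, Mki67, Top2a, Ccna2, Cenpf, Lig1, Ccnd1, Cdkn1a, Rps2, Nhp2, Deptor, Cx3cr1, Hexa, Cxcl16, Slc2a1, Abcb1a, Tagln, Notch3, Itgb4, Timp1, Mmp19, Lamc1, Col4a1, Col4a2, Kcnab2, Adam23, Cadm3, Sdha, Cox5a, Hk3, Pfkm, Plin4, Tnnt3, Slc43a2, Tmem176a, Ptprm, Dclk1, Epha5, Nt5dc2, Itga8, Mgll, Rgs8, Xkr5, Cndp1 and Ccer2. Whether reads were assigned by strand is not given in the sources used here, so the values of these genes may hold reads of the partner.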

How the data were processed

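The authors deposited a table of expected counts per gene, estimated with RSEM 1.2.22 after Trimmomatic, on GRCm38 per the submitters' processing notes. It held 40787 genes, 17175 of them at 0 in all 13 libraries. Each library came from 1 nerve, and p-values measure the spread between these nerves. The annotation release and the strand setting of the counting are not given in the sources used here. Of the genes, 40634 matched GENCODE M21 by identifier. The crush was on 1 side, and injured and contralateral nerves carry the same numbers, but no label says that a number marks 1 mouse. Both libraries of control 3, and no others, showed the sex-linked pattern that sets them apart. Results that change with the number as a block are given with it.

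The estimated counts were rounded to whole numbers, and genes with 50 or more counts in at least 2 of the compared libraries were kept. Differences were tested with edgeR 4.0.16 (R 4.3.3, limma 3.58.1, TMM factors, glmQLFit and glmQLFTest) for each response in its own libraries. The difference between responses was an interaction contrast in all 13 libraries, so that it need not equal the subtraction of the separate fold changes. A gene was called at a Benjamini-Hochberg adjusted p below 0.05 and a fold change above 1.2, and log2 fold changes and standard errors come from these models. CPM are counts per 1000000 of the library total multiplied by its TMM factor, and list sums add them. The factors were estimated on the genes kept over all 13 libraries. They are not scaled by gene length and are not compared between genes. For Rptor an exact permutation test over libraries was used (two-sided, on the absolute difference of the means). Figures were drawn with matplotlib 3.10.9 in Python 3.11.15. With totals of 8200458 to 13581775 counts, 1 count in a RaptorKO library is worth about 0.1 CPM.

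Genes were named by rule. The 12 largest called changes in each direction among protein-coding genes without overlap between groups and with 50 or more counts in each library of the higher group were named, then a list of anchor genes whatever their values. From each of 30 gene lists up to 4 members with the smallest p in the RaptorKO response and up to 2 in the difference followed. The 10 smallest p in each direction of the difference, and up to 6 among genes called in opposite directions, completed the rule. These members and lists were chosen with earlier results of these data known. Other list members, named where a count of 5 or fewer or a group of laminin and collagen genes called for it, were chosen after their values were seen. These are S100b, Tspan2, Gldn, Drp2, Nfasc, Ncam1, Stmn1, Gfap, Cdh2, Dusp1, Nr4a1, Pttg1, Uhrf1, Rrm1, Spp1, Cd163, Cx3cr1, Lyz2, Tek, Notch3, Mmp14, Mmp19, Adamts1, Lamb1, Lamc1, Col4a1, Col4a2, Kcnab2, and Nrcam. Results for some genes that count in these totals are not reported here. Promoter sequences and motif shares come from a RefSeq table of GRCm38.p6.

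On simulated counts with 200 planted changes the RaptorKO comparison recovered 31.3% of 1.5-fold, 73.8% of 2-fold, and 100% of 4-fold changes among 12215 genes, and 9.4% of its calls were false. The difference recovered 9.2%, 47%, and 90.9% among 12709 genes, with 3% false calls. All genes but the 200 were simulated without a change, whereas 58.9% of genes were called in the RaptorKO data. The rates of the RaptorKO comparison therefore need not hold for these data. Alternatives were DESeq2 1.42.0, RLE factors, library totals, no count filter, stricter thresholds, edgeR's exact test, 1 fit of all libraries, a replicate block, each library left out, and both libraries of control 3 left out. Counts of list members and named genes in the difference under these alternatives were added after seeing the data.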

Additional observations from a re-analysis of the deposited data

Results flagged for a closer look

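In RaptorKO contralateral nerves 1 library stood far from the other 3 for some values. The gap to the nearest library was divided by the range of the group and set against Dixon's critical value for 4 libraries. Chance passes this limit in about 1 group of 20, and 20 of the 202 named genes and 2 of 30 list sums passed it. RaptorKO contralateral 3 was the highest for the adipocyte sum (0.934), the erythrocyte sum (0.840), Cfd (0.928), and Car3 (0.952), a carbonic anhydrase of fat and muscle. RaptorKO contralateral 4 was the highest for Mki67 (0.876), Cd68 (0.898), Gfra1 (0.863), Cd4 (0.860), and Atrn (0.892) and the lowest for Extl1 (0.844). Library 2 was the lowest for Pros1 (0.880) and Olfml2a (0.921) and the highest for Pgam1 (0.853), and library 1 was the lowest for Rpl29 (0.857). For Fgf5, Rgs8, B430306N03Rik, Xkr5, Stra6l, Il1rn, and Gdf3 the ratio was 1.0, since 1 or 2 counts in 1 library stood against 0 in the others.

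The injury responses of the 2 genotypes differed by the test of the difference itself for 137 genes above (1.07%) and 181 below 0 (1.41%). Counts within lists were 4 structural myelin, 4 endothelial, and 3 pericyte and vascular smooth muscle genes above 0. Below 0 were 16 mitosis, 5 repair, 5 matrix, 4 S phase, 4 macrophage, and 4 axon domain genes, the last being Kcna1, Kcna2, Adam23, and Kcna6. Single genes with a called difference above 0 on the log2 scale were H2-DMb1 (2.01), F3 (1.82), Bcas1 (1.77), Itga8 (1.77), Slc43a2 (1.73), Col9a2 (1.53), Fbln5 (1.36), Daam2 (1.31), Gjb1 (1.30), Tmem176a (1.15), Atrn (1.08), and Ptprm (0.90). Those below 0 were Cenpf (-3.38), Top2a (-2.51), Sostdc1 (-2.48), Mki67 (-2.43), Itih5 (-2.19), Nt5dc2 (-2.11), Kcna1 (-1.87), Epha5 (-1.61), Olfml2a (-1.57), Mgll (-1.45), Dclk1 (-1.33), and Adam23 (-1.02).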

How the results depend on the processing

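No named gene with a call changed its direction in any alternative. Counts over all genes and over lists were compared by size only. The main fit called more genes higher than lower in RaptorKO nerves (3811 and 3561). With RLE factors (3653 and 3669) and with DESeq2 (3662 and 3707) fewer were higher than lower. In RaptorKO nerves a fold change above 2 left 1764 genes higher and 1666 lower (controls 1943 and 1973). In the lists it left 2 promyelinating factors lower, 14 fatty acid and sphingolipid genes lower, 6 ribosomal protein, 3 ribosome assembly, 2 translation, 17 lysosome, 5 glycolysis, 1 endothelial, and 0 oxidative phosphorylation genes higher, and 5 interferon genes lower. At an adjusted p below 0.01 there were 5 translation and 4 endothelial genes higher and 6 fibroblast and 2 adipocyte genes lower. Adipocyte genes were 2 with DESeq2 and 9 without a count filter, where neutrophil genes were 5 and chemokines 19. Leaving out single libraries gave 3169 to 3598 genes higher and 3064 to 3451 lower (controls 3683 to 3967 and 3732 to 3906), with adipocyte 2 to 4, translation 5 to 10, neutrophil 1 to 3, and endothelial 5 to 8.

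The difference between responses depended more on the setting. An adjusted p below 0.01 left 36 genes above and 48 below 0, a fold above 2 left 74 and 104, DESeq2 gave 245 and 353, and leaving out both libraries of control 3 gave 51 and 62. At p below 0.01 the lists held 2 myelin, 2 repair, 0 S phase, 6 mitosis, 0 macrophage, 1 endothelial, 1 pericyte, and 1 matrix gene, and at a fold above 2 they held 2 myelin, 2 repair, 2 S phase, and 2 endothelial genes. DESeq2 called 8 repair, 7 macrophage, 10 endothelial, and 5 pericyte genes, and the fit without a filter 8 macrophage, 10 endothelial, and 5 pericyte genes. Without both libraries of control 3 there were 2 myelin, 2 repair, 1 S phase, 10 mitosis, 0 macrophage, 2 endothelial, 1 pericyte, and 2 matrix genes. Stricter limits on the same fit give fewer calls by construction, and for the other settings, libraries left out among them, the cause was not tested. Single libraries left out gave 54 to 124 above and 78 to 163 below 0, with myelin 2 to 5, repair 3 to 6, S phase 0 to 4, mitosis 11 to 18, macrophage 1 to 4, endothelial 1 to 6, pericyte 1 to 4, matrix 2 to 6, and axon domain 3 to 5.

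Same-numbered injured and contralateral libraries did not deviate together in every pair (r of -0.024, 0.211, and 0.168 in RaptorKO and 0.067, 0.129, and 0.305 in control nerves), and the same number gave the highest r for 4 of 6 injured libraries. Deviations from means of 3 or 4 libraries cannot decide whether the numbers mark mice. The crush was on 1 side, and the paper speaks of contralateral nerves that correspond to the injured ones. Both libraries of control 3 also share a sex-linked pattern. The main fits nevertheless take all nerves as independent. The replicate block gave 3698 higher and 3569 lower genes in RaptorKO nerves, 3975 and 4051 in controls, and 163 and 190 in the difference, with 8 macrophage genes. It held 81.0% and 77.9% of the genes called in the difference without the block. Of simulated 1.5-fold differences 9.2% were recovered with 3 or 4 nerves per group.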
